A study of Mus musculus with 95 samples.

Results

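The data describe 26 genes of cholesterol synthesis and its control by the transcription factor SREBP2, taken by symbol from 55471 features of the count table, where each matched 1 Ensembl gene. They were followed in RNA of the mouse nucleus accumbens, a ventral striatal region tied to reward. All mice, on a B6;FVB background, carried the transgene Tg(Aldh1l1-EGFP/Rpl10a)JD130Htz/J, in which the regulatory sequence of the astrocyte gene Aldh1l1 drives a ribosomal protein fused to a green fluorescent protein, so the tagged ribosomes are those of cells in which this promoter is active. RNA purified with these ribosomes made up 1 library of a mouse, called IP, and RNA kept back before that step made up a second, called input, which stands for the whole tissue. Dependent mice went through CIE-2BC, a chronic intermittent ethanol exposure of 5 rounds combined with drinking sessions, non-dependent mice had the drinking sessions (2BC) alone, and naive mice had no ethanol. Ages were not among the labels used here. IP libraries came from 18 dependent, 13 non-dependent and 15 naive mice of both sexes, and input libraries from 18, 15 and 16 mice.

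A cell makes cholesterol from acetyl-CoA. The mevalonate arm leads to isoprenoid units, farnesyl diphosphate stands at the branch to sterols or to longer isoprenoids, and the sterol arm closes the rings and trims lanosterol to cholesterol. SREBP2 (Srebf2) is held in the endoplasmic reticulum by its escort Scap and by the Insig proteins when sterol is plentiful, and when sterol is scarce it is cut and switches on most genes of the pathway, Insig1 among them. The adult brain makes its own cholesterol, glia supply much of it, and neurons turn it over through the 24-hydroxylase Cyp46a1.

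The 46 IP libraries held 14314236 to 27146790 counts and the 49 input libraries 12803108 to 23948193, and the labels place them in 6 batches, C, G, I, J, K and L. The 6 astrocyte markers summed to between 10602 and 18507 CPM (counts scaled by the library total) in every IP library and to between 1729 and 2768 CPM in every input library, with no overlap, and each of the 6 was higher in IP (median log2 difference 3.10). All 5 neuron markers were lower in IP (median -1.32), as were 5 of 6 oligodendrocyte markers (median -1.37), though no marker of either list was at 0 in any library. The libraries of a mouse were compared by how each gene deviated from its mean for the treatment, sex and fraction, with batch left in. These correlations, over 11367 genes, are of deviations and not of whole expression profiles. The non-dependent mouse K15 stood apart, with a correlation of -0.26 between its IP and input libraries. The median was 0.59 over the 46 mice with both, and 0.38 for libraries of different mice within a batch.

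The counts of some members may be shared with other genes, because the sources used here do not state whether the counting used strand or how it treated multiply mapping reads. Fdps, the farnesyl diphosphate synthase, held only 1546 counts over all 95 libraries, while the processed pseudogene Gm3571, with 98.9% identity over 1062 bases, held 9671. The values of Fdps are therefore uncertain. Acat2 resembles Acat3 (97.7% identity over 1477 bases), and Fdft1 shares 774 exon bases with the opposite-strand gene Ctsb and resembles Gm6781. Idi1 resembles Gm13502, and Tm7sf2 shares 532 exon bases (12.1%) with Vps51 on the same strand. Acat2 also resembles Tcp1 (98.7% identity over 445 bases, 163126 counts). Acat3 held 8587 counts beside 99698 of Acat2, and Ctsb 1026944 beside 197530 of Fdft1. Acat3 was higher in IP than in input (log2 fold change 3.04 ± 0.09 SE), as were Ctsb (0.98 ± 0.04) and Gm6781 (0.54 ± 0.09). Vps51 was lower (-0.23 ± 0.05). In IP, Acat3 was lower in dependent than in naive mice (-0.64 ± 0.14). Their part in the values of the members was not tested. Lbr was low as well, with 5808 counts in all.

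Upstream sequences are printed for the SREBP2 gene itself, for Hmgcs1, an enzyme of the mevalonate arm, and for Insig1, the sterol-regulated inhibitor with the widest treatment difference among the 26 genes. They come from RefSeq (GRCm38.p6), read 5′ to 3′ on the plus strand, and end before the annotated transcripts. Capitals mark 4 motifs, or their reverse complements, searched on both strands: TCACNCCA (letters of a sterol regulatory element), CCAAT (the NF-Y box), GGGCGG (the GC box bound by Sp1) and CACGTG (an E-box).
Insig1 chr5:28071162-28071362: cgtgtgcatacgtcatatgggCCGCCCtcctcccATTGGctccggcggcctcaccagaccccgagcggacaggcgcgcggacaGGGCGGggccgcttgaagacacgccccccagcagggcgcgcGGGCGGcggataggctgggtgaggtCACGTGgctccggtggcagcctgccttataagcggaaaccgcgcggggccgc
Hmgcs1 chr13:119690101-119690350: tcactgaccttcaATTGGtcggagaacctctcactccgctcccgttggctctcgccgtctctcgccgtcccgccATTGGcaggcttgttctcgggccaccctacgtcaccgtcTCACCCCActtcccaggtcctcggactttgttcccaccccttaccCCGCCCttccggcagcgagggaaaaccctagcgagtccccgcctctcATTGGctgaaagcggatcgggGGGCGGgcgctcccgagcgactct
Srebf2 chr15:82147019-82147180: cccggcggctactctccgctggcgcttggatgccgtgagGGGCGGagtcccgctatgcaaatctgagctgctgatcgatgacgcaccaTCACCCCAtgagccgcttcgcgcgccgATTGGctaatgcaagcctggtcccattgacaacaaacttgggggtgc

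Windows of 300 bases (250 before to 50 after the start) were at hand for 22 of the 26 genes. TCACNCCA was in the windows of 3 of them (Hmgcs1, Msmo1 and Srebf2), against 4.36% of all 32851 windows. CCAAT was in 20 of 22, against 37.4% of all windows, and GGGCGG in 20 of 22, against 35.7%. CACGTG was in 5 (Hsd17b7, Sc5d, Dhcr7, Scap and Insig1), against 7.15%. A member was counted if any window under its symbol held the letters, while the shares are of single windows. The measures are alike only where a gene has a single window. Motif letters may overlap, and a match describes the letters in a window, not a bound site.

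Most genes of the pathway were higher in RNA of astrocyte ribosomes than in RNA of the whole tissue, though by far less than astrocyte markers. In the paired comparison of IP and input (46 mice, edgeR quasi-likelihood test with Benjamini-Hochberg adjustment over 21743 genes), 19 of 26 were higher, where 33.6% of all genes were higher, and 4 were lower, where 45.0% of all genes were lower. Ggps1, Lbr and Insig2 did not pass. The median log2 fold change of the 26 was 0.61, beside -0.16 over all genes tested. In the input, fewer cells of a type and less RNA per cell cannot be told apart. The input includes the astrocytes and is not limited to RNA on ribosomes, so ribosome loading cannot be told apart from cell type either.

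In the mevalonate arm all 6 genes were higher in IP, with a median log2 fold change of 1.09. Hmgcs1, the HMG-CoA synthase, ran from 108 to 340 CPM in IP (median 167) and from 46.8 to 135 CPM in input (median 80.0). It was higher in IP in 46 of 46 mice (log2 fold change 1.22 ± 0.04 SE, adjusted p = 1.1e-36). Idi1, the isomerase that makes dimethylallyl diphosphate, had a difference of 1.51 ± 0.07, the largest of the 26 by estimate, and Mvd, the decarboxylase before it, one of 1.35 ± 0.06. The kinases Mvk (0.94 ± 0.04) and Pmvk (0.96 ± 0.04) were close to each other. Acat2, which joins 2 acetyl-CoA, had the smallest passing difference of the arm at 0.26 ± 0.04, and 30 of 46 mice had a higher CPM in IP.

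At the branch point, Fdps was lower in IP (-0.68 ± 0.14) at low levels, 0.600 ± 0.381 CPM (SD, n = 46) in IP and 1.14 ± 0.468 CPM (n = 49) in input, and its pseudogene Gm3571 had 0.05 ± 0.07. Ggps1, which makes geranylgeranyl diphosphate for protein prenylation, had -0.05 ± 0.03 (adjusted p = 0.144).

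Of the 12 genes of the sterol arm, 10 were higher in IP, 1 was lower and 1 did not pass. Sc5d, the lathosterol desaturase, ran from 72.0 to 262 CPM in IP (median 135) and from 26.8 to 89.8 CPM in input (median 53.4), with a log2 fold change of 1.49 ± 0.04 (adjusted p = 1.7e-41) and a higher value in IP in 46 of 46 mice. Cyp51, the lanosterol demethylase (1.31 ± 0.04), and Msmo1, the methylsterol oxidase after it (1.26 ± 0.04), were also higher in 46 of 46 mice. Squalene epoxidase Sqle (0.72 ± 0.05) and squalene synthase Fdft1 (0.56 ± 0.04) were nearer the middle of the list. Dhcr7, the final reductase of one route to cholesterol, had 0.55 ± 0.06. Ebp, the sterol isomerase, went the other way (-0.42 ± 0.05) and was lower in IP in every one of the 46 mice, with 14.7 to 32.4 CPM in IP (median 22.7) and 19.5 to 46.1 CPM in input (median 33.6). The 2 sterol 14-reductases differed from each other in position: Tm7sf2 had 0.61 ± 0.05 and Lbr, also a protein of the nuclear envelope, 0.01 ± 0.14.

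The regulators split. Insig1 ran from 28.6 to 149 CPM in IP (median 58.7) and from 12.3 to 45.8 CPM in input (median 23.8), and was higher in IP in 46 of 46 mice (1.43 ± 0.05, adjusted p = 1.3e-33). Insig2, its paralog, which is not an SREBP2 target in the textbook scheme, had 0.01 ± 0.05 (adjusted p = 0.922). Srebf2 (0.61 ± 0.03) and Scap (0.52 ± 0.04) were both higher in IP. The sterol transfer protein Stard4 was lower (-0.47 ± 0.08).

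Cyp46a1 had the lowest fold change of the 26. It ran from 31.6 to 138 CPM in IP (median 75.3) and from 68.3 to 270.0 CPM in input (median 180.3), so that the ranges overlapped, but within a mouse IP was the higher library in only 1 of 46. Its log2 fold change was -0.91 ± 0.04 (adjusted p = 3.6e-29), between 0 and the -1.32 of the neuron markers.

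These directions were computed with TMM scaling, which left the median of all genes at -0.16. With median-ratio size factors the median was -0.21 and with library totals -0.33, and the members then split into 19 higher and 5 lower, and 18 higher and 6 lower. The genes whose call changed with the scale were Acat2 (0.09 ± 0.05 with library totals, adjusted p = 0.057), Ggps1 (-0.10 ± 0.03 with median-ratio factors and -0.22 ± 0.04 with library totals, both passing) and Insig2, which turned to -0.16 ± 0.05 with library totals (adjusted p = 0.0013).

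**Figure D1:**
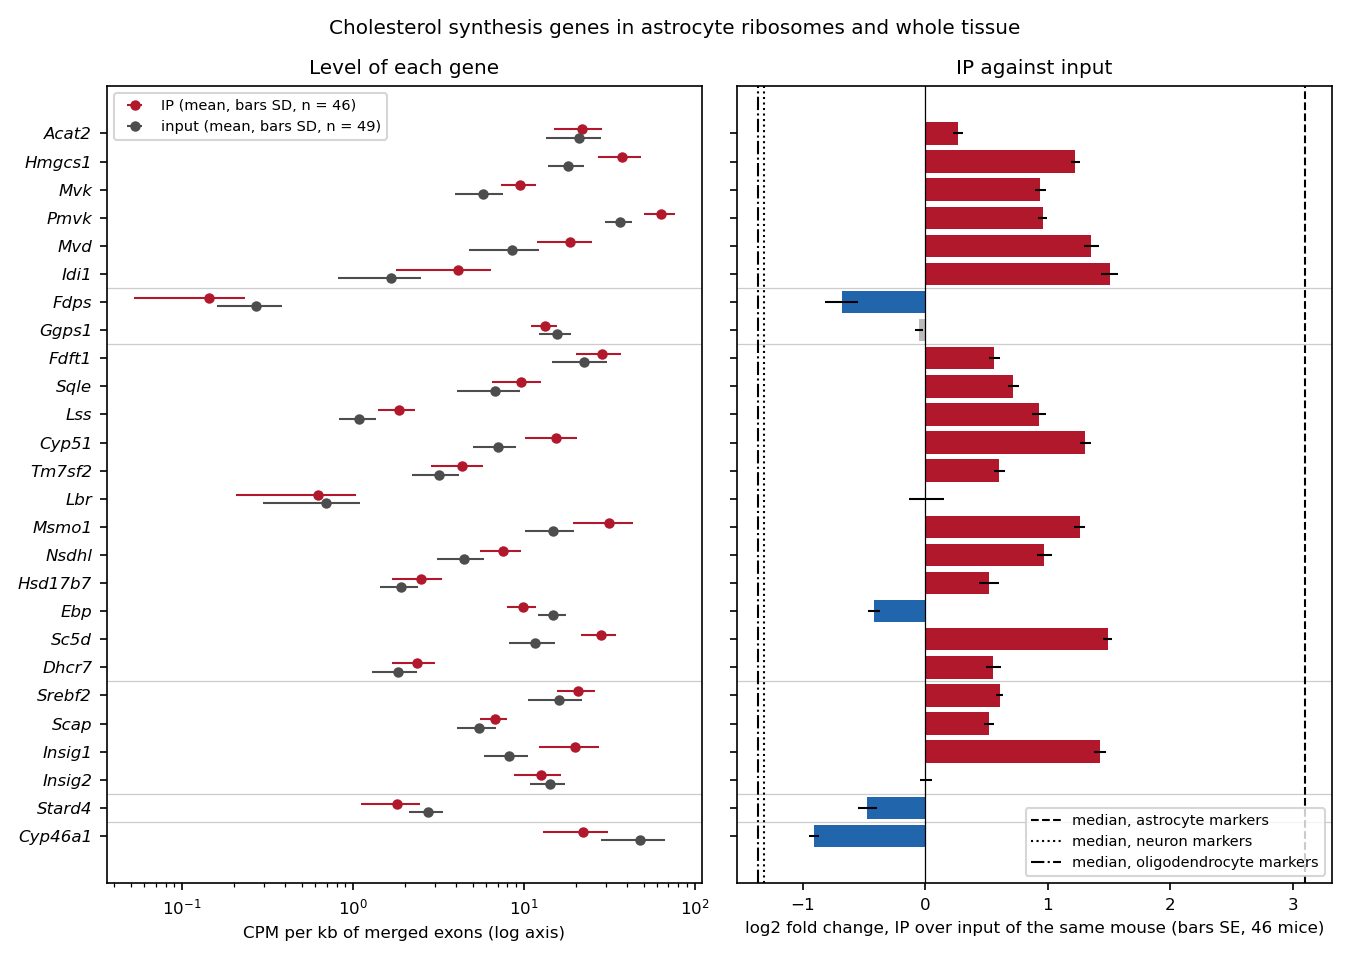
Left, mean level of each gene in CPM per kb of merged exons on a log axis, in IP (46 libraries) and input (49 libraries), with SD bars cut short near 0. Right, log2 fold change of IP over input within 46 mice with SE bars, red where higher, blue where lower and grey where the adjusted p is over 0.05, with the medians of 3 marker lists as lines. Most bars lie between 0.26 and 1.51, right of 0 and well short of the astrocyte marker line at 3.10.

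Per kb of merged exons, levels in IP spanned Fdps at 0.143 ± 0.0905 CPM per kb (SD, n = 46) to Pmvk at 63.3 ± 12.98. Pmvk stood above the next gene, Hmgcs1 (37.6 ± 10.6), by more than the SD of either. Msmo1 (31.5 ± 12.1), Fdft1 (28.5 ± 8.38) and Sc5d (28.1 ± 6.46) came after Hmgcs1, each within 1 SD of the gene before it. Cyp46a1 (21.98 ± 9.09), Acat2 (21.8 ± 6.83), Srebf2 (20.8 ± 5.29) and Insig1 (19.9 ± 7.64) followed within one another's spread. Lbr (0.619 ± 0.413), Stard4 (1.79 ± 0.676) and Lss (1.85 ± 0.445) were low on this scale. In input the mean over all batches was 47.5 ± 19.3 CPM per kb for Cyp46a1 (n = 49), 36.3 ± 6.61 for Pmvk and 22.5 ± 7.95 for Fdft1, but the order of the first 2 depended on batch. Cyp46a1 was above Pmvk in batches I (62.8 against 36.8) and L (65.4 against 33.3). It was below Pmvk in J (27.8 against 35.6) and K (27.4 against 38.8), and in the single input libraries of C and G. In IP Pmvk was first in each of the 6 batches, while Cyp46a1 averaged 31.1 and 26.8 CPM per kb in I and L and 13.05 and 15.7 in J and K. Insig2 stood above Insig1 in input (14.1 ± 3.23 against 8.19 ± 2.33) and below it in IP (12.5 ± 3.79 against 19.9 ± 7.64). These are levels per length with no test, and the order rests on the length used. Merged exons were shortest for Pmvk (1713 bases) and longest for Lss (10787 bases). In CPM without length, Msmo1 (mean 194) and Hmgcs1 (173) were above Pmvk (108) in IP. Lss (19.9) was then above Idi1 (14.4), Dhcr7 (13.7) and Hsd17b7 (12.7).

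Batch moved the members unequally. With treatment and sex in the fit, batch took 81.5% of the remaining variance of Cyp46a1 log2 CPM in IP and 88.3% in input, and 77.2% and 81.4% of that of Srebf2. For Hmgcs1 it took 4.07% and 5.25%. The median over the 26 genes was 22.7% in IP and 33.1% in input. Cyp46a1 was high in batches I and L and low in J and K: in input, naive mice of batch L averaged 218 CPM and those of batch J 97.1 CPM. Raw CPM of a treatment group thus depend on its batches. There were no naive mice in batch I and no non-dependent mice in batch L.

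Dependent and non-dependent mice both drank and differ in the rounds of CIE. In IP 1 of the 26 genes rose, Insig1, where 1.10% of all genes rose, and 1 fell, Cyp46a1, where 0.445% of all genes fell. Of the 20 synthesis enzymes 0 passed (edgeR), 15 had an estimate above 0 and 5 had an unadjusted p under 0.05. Shares of all genes beside these last counts are not given here, so they are not read as a rise. DESeq2 and limma voom also called 2 members. With no filter on low counts Cyp51 (0.35 ± 0.09, adjusted p = 0.0057) and Tm7sf2 (0.42 ± 0.12, adjusted p = 0.030) passed as well, as they did with neuron markers as a covariate (0.45 ± 0.12, adjusted p = 0.036, and 0.55 ± 0.11, adjusted p = 0.0044). The median over the 26 was 0.12, beside 0.0021 over the 19979 genes tested.

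Insig1 (ENSMUSG00000045294, GRCm38 chr5:28071363-28078662, plus strand) in IP ran from 28.6 to 65.3 CPM in the 13 non-dependent mice (median 40.5) and from 33.5 to 149 CPM in the 18 dependent mice (median 69.5). The groups overlapped, and with all batches pooled 12 of 18 dependent libraries were above the highest non-dependent one. Those of batch L (66.2 to 75.7 CPM), which holds no non-dependent mice, are among the 12. The fit below took in 16 of the 18, without batches C and G. Naive mice lay between, from 41.6 to 95.6 CPM (median 57.7). The fitted difference between dependent and non-dependent mice was 0.80 ± 0.15 (SE, log2, adjusted p = 0.0024), with 0.90 in females and 0.70 in males. Within batches it was 1.15 in I (7 against 7 mice), 0.40 in J (4 against 3) and 0.38 in K (2 against 3), and in batch I every dependent mouse (61.4 to 149 CPM) was above every non-dependent one (28.6 to 58.3 CPM). From batches J and K alone the difference was 0.35 ± 0.22 (adjusted p = 0.711).

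Insig1 also rose in input, where 0.310% of all genes rose. It was the only member of the 26 to pass there in edgeR, and 0 fell, where 0.0457% of all genes fell, with 4 members at an unadjusted p under 0.05. It ran from 12.3 to 33.4 CPM in 15 non-dependent mice (median 23.3), from 15.1 to 31.4 CPM in 16 naive mice (median 22.2) and from 17.98 to 45.8 CPM in 18 dependent mice (median 28.8), and 7 dependent libraries were above the highest non-dependent one. The difference was 0.48 ± 0.10 (adjusted p = 0.015), and within batches 0.44 in I, 0.55 in J and 0.29 in K. It did not pass in a fit of all 6 batches without a batch term (0.42 ± 0.11, adjusted p = 0.147) or in batches J and K alone (0.50 ± 0.18, adjusted p = 0.999). The IP difference minus the input difference was 0.31 ± 0.12 (adjusted p = 0.471), so a difference between the fractions was not shown.

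Microglia markers moved in the same contrast. C1qa (0.75 ± 0.17) and C1qb (0.69 ± 0.18) rose in IP, and 4 of the 6 markers did not pass. The sum of the 6 ran from 99.2 to 457 CPM in dependent IP libraries (median 158) and from 119 to 176 CPM in non-dependent ones (median 136), and none of the 6 was at 0 in any library. In input C1qa rose (0.44 ± 0.11) and P2ry12 fell (-0.39 ± 0.09). With the mean microglia marker level as a further covariate, Insig1 was 0.75 ± 0.16 in IP (adjusted p = 0.00834) and 0.46 ± 0.11 in input (adjusted p = 0.041).

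The other SREBP2 targets had smaller estimates beside Insig1. In IP, Hmgcs1 was 0.18 (95% interval -0.11 to 0.47), Sqle 0.03 (-0.24 to 0.29), Idi1 -0.06 (-0.45 to 0.33) and Msmo1 0.25 (-0.03 to 0.53). The larger ones were Tm7sf2 (0.42 ± 0.15, adjusted p = 0.186), Cyp51 (0.35 ± 0.15, adjusted p = 0.306), Lss (0.34 ± 0.12, adjusted p = 0.172) and Mvd (0.31 ± 0.15, adjusted p = 0.398). The ratio of Insig1 to Hmgcs1 counts in IP had a median of 0.276 in non-dependent mice (0.190 to 0.349), 0.328 in naive mice (0.272 to 0.435) and 0.436 in dependent mice (0.249 to 0.642). The ratio is a description, since Insig1 was singled out for its change. Srebf2 (-0.01 ± 0.07), Scap (-0.04 ± 0.08) and Insig2 (0.02 ± 0.09) were near 0.

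Cyp46a1 (GRCm38 chr12:108334381-108362234, plus strand) in IP ran from 37.5 to 138 CPM in non-dependent mice (median 97.2), from 31.6 to 107 CPM in dependent mice (median 71.0) and from 32.5 to 106 CPM in naive mice (median 54.8). The spread followed batch, and the groups overlapped. With batch in the fit the dependent mice were lower than the non-dependent by -0.39 ± 0.09 (adjusted p = 0.014), and within batches by -0.38 in I, -0.07 in J and -0.68 in K. In input the same difference was -0.08 ± 0.07 (adjusted p = 0.943), and the difference between the fractions was -0.29 ± 0.10 (unadjusted p = 0.0043, adjusted p = 0.334). The 5 neuron markers had IP differences of -0.19 to -0.0005 with none passing, and their sum ran from 758 to 1742 CPM in dependent and from 993 to 1591 CPM in non-dependent IP libraries. With these markers as a covariate Cyp46a1 was -0.37 ± 0.09 (adjusted p = 0.021). The 6 oligodendrocyte markers all had estimates below 0 in this IP comparison (-0.34 to -0.04, median -0.17), with 0 passing (edgeR) and 3 at an unadjusted p under 0.05. Their sum ran from 1021 to 2362 CPM in dependent (median 1516) and from 1126 to 2644 CPM in non-dependent IP libraries (median 1880). The call on Cyp46a1 ended in a fit of all 6 batches without a batch term (-0.38 ± 0.19, adjusted p = 0.677) and in batches J and K alone (-0.31 ± 0.17, adjusted p = 0.638). It also ended with oligodendrocyte markers as a covariate (-0.34 ± 0.09, adjusted p = 0.060) and without mouse K15 (-0.31 ± 0.09, adjusted p = 0.062). In limma voom it held without any 1 of the 44 libraries (highest adjusted p = 0.040).

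**Figure D2:**
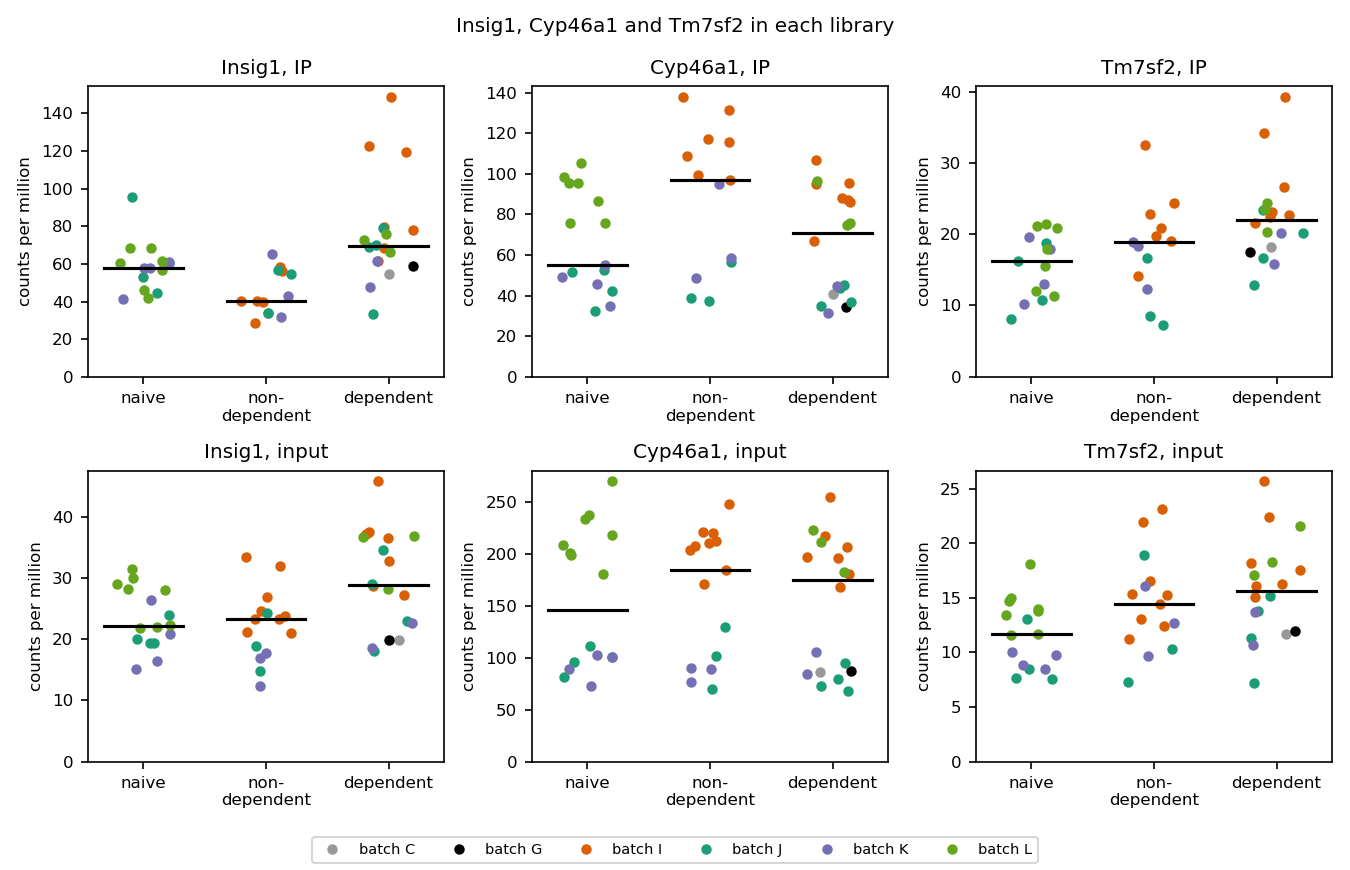
CPM of Insig1, Cyp46a1 and Tm7sf2 in every IP library (top) and input library (bottom) by treatment, with points coloured by batch and a black line at the group median. Dependent points of Insig1 in IP reach 149 CPM while non-dependent points end at 65.3 CPM, and for Cyp46a1 batches I and L lie above J and K in each treatment that they share.

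Dependent and naive mice differ in the drinking and in the rounds of CIE. In IP 0 of 26 genes passed (edgeR), while 4.67% of all genes passed in either direction. At an unadjusted p under 0.05 there were 3, Pmvk, Lss and Tm7sf2, limma voom called 0 and DESeq2 called 1, Pmvk. Phosphomevalonate kinase Pmvk ran from 56.8 to 126 CPM in naive mice (median 99.95) and from 78.1 to 162 CPM in dependent mice (median 123), with a difference of 0.31 ± 0.10 (adjusted p = 0.052) that was above 0 in each of batches J (0.46), K (0.18) and L (0.37). Pmvk passed with DESeq2 (adjusted p = 0.032), with no filter on low counts (0.0096), with neuron markers as a covariate (0.043) and without mouse K15 (0.035), and Cyp51 passed with no filter (0.28 ± 0.09, adjusted p = 0.049). Of the 26 genes, 19 had an estimate above 0 (73.1%, beside 50.2% of all genes tested), with a median of 0.09 beside 0.0016. Insig1 was 0.23 ± 0.16 (adjusted p = 0.535).

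In input 1 of 26 genes rose, Tm7sf2, where 1.42% of all genes rose, and 0 fell, where 0.965% of all genes fell. Tm7sf2 (GRCm38 chr19:6062821-6068373, minus strand), one of the sterol 14-reductases, ran from 7.57 to 18.1 CPM in 16 naive mice (median 11.7) and from 7.22 to 25.7 CPM in 18 dependent mice (median 15.6). The groups overlapped, with 5 dependent libraries above the highest naive one. The difference was 0.43 ± 0.12 (adjusted p = 0.046) and stood at 0.45 in batch J, 0.22 in K and 0.42 in L. Vps51, which shares exon bases with it, was 0.07 ± 0.09. In the IP of the same mice Tm7sf2 was 0.32 ± 0.16 (adjusted p = 0.286). The 6 oligodendrocyte markers all had estimates below 0 in the same input comparison (-0.27 to -0.12, median -0.20), with 0 passing (edgeR) and 2 at an unadjusted p under 0.05, and their sum ran from 3227 to 5752 CPM in dependent (median 4526) and from 3469 to 7163 CPM in naive libraries (median 4607). The call on Tm7sf2 ended in batches J and K alone (0.45 ± 0.18, adjusted p = 0.428), with oligodendrocyte markers (0.40 ± 0.13, adjusted p = 0.098) or neuron markers (0.29 ± 0.10, adjusted p = 0.138) as a covariate, and without mouse K15 (0.42 ± 0.12, adjusted p = 0.059). With each of 47 input libraries left out in turn in limma voom it ended in 9 (naive mice J01, J07, J08, K19 and L23 and dependent mice J05, J06, L25 and L29), where the adjusted p reached 0.095. Acat2 (0.29 ± 0.09, adjusted p = 0.084) passed with DESeq2 (adjusted p = 0.042) and with no filter on low counts (0.049). The estimates of 20 of 26 genes were above 0 (76.9%, beside 49.2% of all genes), with a median of 0.12 beside -0.0043. The comparisons against naive and non-dependent mice share the dependent libraries.

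Non-dependent and naive mice differ in the drinking alone. In IP 0 of 26 genes passed (edgeR, 3 at an unadjusted p under 0.05, and 0 by DESeq2 and limma voom), where 0.440% of all genes passed. In input 0 of 26 passed (4 at an unadjusted p under 0.05, and 0 by both other tools), where 0.122% of all genes passed. Insig1 had the lowest estimate in IP, -0.57 ± 0.18 (adjusted p = 0.142). Its 13 non-dependent libraries had 7 below the lowest naive one, and within batches it was -0.43 in J and -0.39 in K. With no filter on low counts the estimate was the same but its standard error was smaller, and the difference passed (-0.57 ± 0.10, adjusted p = 1.2e-05). It also passed with neuron markers as a covariate (-0.70 ± 0.15, adjusted p = 0.020). In input it was -0.22 ± 0.12 and passed with the same covariate (-0.37 ± 0.08, adjusted p = 0.043). The number of estimates above 0 was 13 of 26 in IP and 14 of 26 in input.

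Within batches the members as a set kept no single direction. Against non-dependent mice the median of the 26 IP differences was 0.17 in batch I and 0.13 in J but -0.15 in K. Against naive mice it was 0.08 in J, -0.10 in K and 0.05 in L. In IP, 6 members were higher and 2 lower in all 3 batches of the first contrast, and 5 and 4 in all 3 of the second. The share of all genes with such a pattern was not computed, so these counts do not set the members apart. Batch K holds 2 dependent mice.

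**Figure D3:**
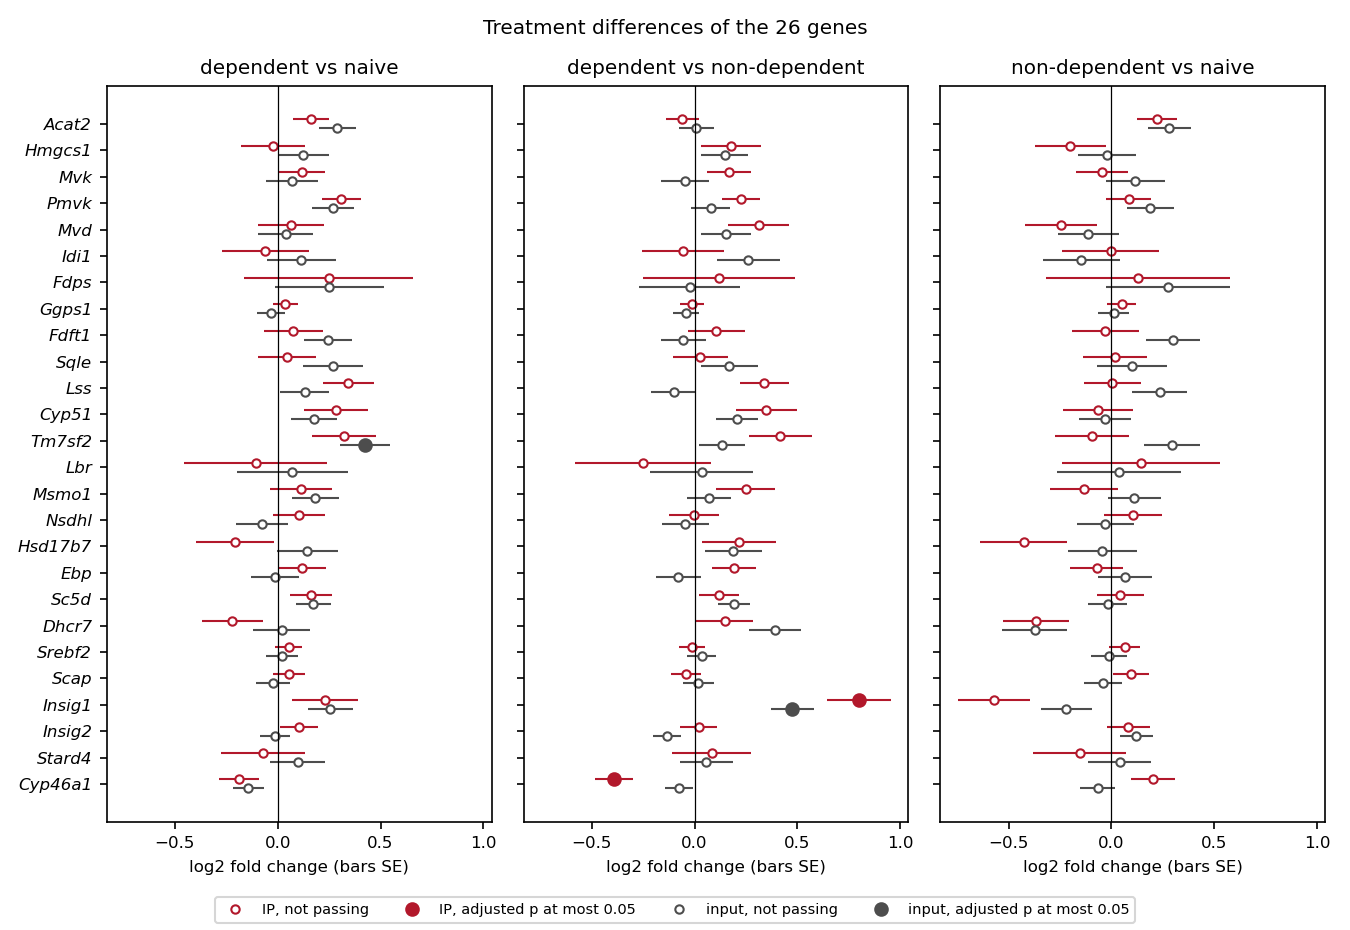
Log2 fold changes of the 26 genes with SE bars for the 3 treatment comparisons, in IP (red) and input (grey), with filled symbols where the adjusted p is at most 0.05. Filled symbols are Insig1 at 0.80 and 0.48 and Cyp46a1 at -0.39 in the middle panel, and Tm7sf2 at 0.43 in the left panel.

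Whether a treatment difference was larger in IP than in input was tested in the mice with both libraries. In edgeR 0 of 26 genes passed for dependent against naive mice, where 0.356% of all genes passed. The count was also 0 for dependent against non-dependent mice, where 0.0923% passed, and 0 for non-dependent against naive mice, where 0% passed. At an unadjusted p under 0.05 there were 0, 5 and 5 genes, and limma voom called 0 in each. The smallest p was that of Fdft1 for non-dependent against naive mice (-0.33 ± 0.11, adjusted p = 0.654). Whether a treatment difference differed between the sexes was tested in the same way. No member passed in any of the 3 contrasts in IP or input with edgeR, DESeq2 or limma voom, and 0% of all genes passed in edgeR. The numbers at an unadjusted p under 0.05 were 0, 0 and 0 in IP and 1, 3 and 1 in input.

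Across mice, with the means of treatment by sex and of batch removed, several members varied together. Hmgcs1 and Sqle had a Pearson r of 0.77 in 44 IP libraries and 0.71 in 47 input libraries (Spearman rho 0.79 and 0.72, permutation p = 1e-05 for each, the smallest the permutations can give, adjusted p = 2e-05 over 10 relations for r and rho). Without the 2 mice farthest from the median of Hmgcs1, r was 0.75 and 0.68. Within batches it was 0.39 to 0.86 in IP, lowest in L, and 0.59 to 0.83 in input. Hmgcs1 and Insig1 had r of 0.78 in IP and 0.72 in input (rho 0.74 and 0.70, with the same p and adjusted p for r and rho), or 0.71 and 0.67 without 2 mice. Within batches it was 0.35 to 0.88 in IP and 0.29 to 0.92 in input, in both cases lowest in L.

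Hmgcs1 and Idi1 had r of 0.58 in IP (permutation p = 7e-05, adjusted p = 0.000117, rho 0.59 with the same p) and 0.54 in input (permutation p = 0.00013, adjusted p = 0.000186, rho 0.50 with permutation p = 0.00039, adjusted p = 0.000557). Without 2 mice these were 0.68 and 0.47, and within batches 0.51 to 0.80 and 0.24 to 0.70. Hmgcs1 and Srebf2 had r of 0.43 in IP (permutation p = 0.00333, adjusted p = 0.00416, rho 0.45 with permutation p = 0.00268, adjusted p = 0.00335) and 0.63 in input (rho 0.64, permutation p = 1e-05 for both, adjusted p = 2e-05). Without 2 mice these were 0.47 and 0.58, and within batches 0.08 (J) to 0.65 in IP and 0.46 to 0.79 in input.

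Insig1 and Insig2, the paired inhibitors, did not vary together by this test. In IP r was -0.10 (permutation p = 0.535, adjusted p = 0.535, rho -0.05 with permutation p = 0.756, adjusted p = 0.756), and it ran from -0.53 in batch I to 0.36 in J. In input r was 0.15 (permutation p = 0.326, adjusted p = 0.362, rho 0.15 with permutation p = 0.323, adjusted p = 0.359), and it ran from 0.04 to 0.28 within batches. Without 2 mice these were -0.11 and 0.12. So 8 of the 10 relations passed.

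Neuron markers varied with the same genes. Hmgcs1 had r of 0.70 with the mean of the 5 neuron markers in IP and 0.85 in input, and Sqle 0.73 and 0.83. Among the 20 synthesis enzymes the median r of a pair was 0.38 in IP and 0.28 in input, and with neuron markers it was 0.39 and 0.36. With astrocyte markers it was 0.13 and 0.01, with oligodendrocyte markers 0.01 and 0.06 and with microglia markers 0.02 and 0.03. With endothelial markers it was below 0, at -0.18 and -0.06. When the mean neuron marker level was regressed out of both genes, 2 of the 10 relations passed, both in IP: Hmgcs1 with Sqle at r of 0.52 (permutation p = 0.00017, adjusted p = 0.00085) and Hmgcs1 with Insig1 at 0.64 (permutation p = 2e-05, adjusted p = 0.0002). In input these were 0.04 and 0.12. The part of neuron RNA in the treatment differences and in the relations was not tested beyond these values.

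The highest r between 2 members in IP was 0.91, between Fdft1 and Msmo1, which were also the highest pair in input at 0.79. Cyp51 with Msmo1 (0.88) and Fdft1 with Mvd (0.84) followed in IP. Lbr (median r with the enzymes 0.01), Scap (0.0037) and Insig2 (0.04) stood apart from the enzymes in IP, while Srebf2 had 0.43, Stard4 0.43 and Cyp46a1 0.21. These are descriptions of points that share library depth and batch.

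**Figure D4:**
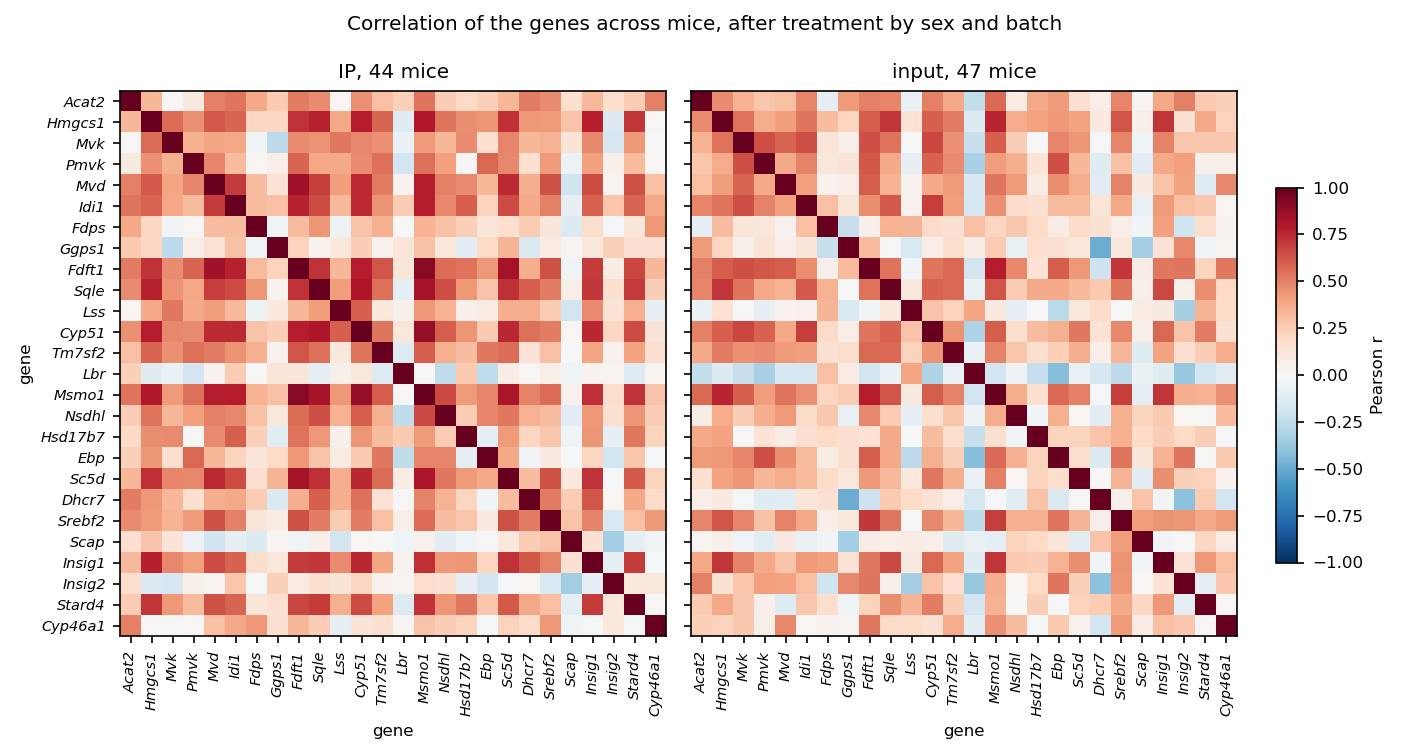
Pearson r between each 2 of the 26 genes across 44 mice in IP and 47 mice in input, after removing the means of treatment by sex and of batch, with genes ordered by role. In IP a block of red joins Hmgcs1, Mvd, Idi1, Fdft1, Sqle, Cyp51, Msmo1 and Sc5d with Insig1 and Stard4, while the rows of Lbr, Scap and Insig2 are near white.

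Beside the 26 genes, 26 companion genes of the pathway were followed, of which 25 were tested between IP and input and 24 between treatments. Between IP and input 14 were higher and 9 lower, where 33.6% of all genes were higher and 45.0% lower. Of the 7 that act in SREBP processing and sterol sensing, 4 were higher and 3 lower. Srebf1, which encodes the SREBP that drives fatty acid genes, was at 2.72 ± 0.04, below the astrocyte markers (2.91 to 3.25) and above every member. Mbtps1 (-0.42 ± 0.04) and Mbtps2 (-0.59 ± 0.09), the proteases that cut SREBP, were lower. Acss2, which makes acetyl-CoA from acetate, was at 1.75 ± 0.05, and Cyp7b1, an oxysterol hydroxylase, at 1.79 ± 0.06.

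Of the companion genes 1 passed between dependent and naive mice in IP, Cyp39a1, the hydroxylase of 24-hydroxycholesterol (1.503 ± 0.34, adjusted p = 0.0050), where 4.67% of all genes passed. In input 1 rose, Nus1, a subunit of the enzyme that builds dolichol (0.27 ± 0.07, adjusted p = 0.035), where 1.42% of all genes rose and 0.965% fell. In the other 4 treatment comparisons 0 passed (edgeR), with 1 to 3 at an unadjusted p under 0.05. Between dependent and non-dependent mice 1.10% of all genes rose and 0.445% fell in IP, and 0.310% rose and 0.0457% fell in input. Between non-dependent and naive mice 0.440% passed in IP and 0.122% in input. Srebf1 was 0.16 ± 0.08 (adjusted p = 0.415) in IP and 0.36 ± 0.10 (adjusted p = 0.173) in input between dependent and non-dependent mice, and Acss2 was 0.36 ± 0.12 (adjusted p = 0.075) in IP between dependent and naive mice.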

How the data were processed

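The authors deposited raw counts per gene, 1 column for each library. According to the submitters' processing notes the tools were FastQC 0.11.9, Trimmomatic 0.39 and STAR 2.7.10b on GRCm38, and per the labels the libraries were made with Takara's SMART-Seq PLUS. Neither the counter nor its annotation or strand setting is stated in the sources used here. Symbols and exon lengths came from GENCODE mouse release M21.

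Tests were quasi-likelihood fits of the counts in edgeR 4.0.16 under R 4.3.3 (TMM, filterByExpr with a minimum count of 10 and total of 15, robust), with p-values adjusted by the Benjamini-Hochberg method over all genes with a threshold of 0.05. Each fraction was fitted on its own in batches I, J, K and L (C and G hold only dependent mice), with 1 mean per treatment and sex and a batch term. A treatment difference averages females and males. IP and input were compared with the mouse as a replicate block, where the dispersion came from the top 5% of genes by abundance. The pairing rests on the labels, since both libraries come from 1 mouse. A correlation over 0.1 between the deviations from group means, found in 45 of 46 mice, does not test it. Libraries of different mice in 1 batch had a median of 0.38. Of the 46 IP libraries, 35 correlated best with the input of their own mouse. CPM are counts scaled by library total without batch adjustment. Standard errors came from the F statistic, and 95% intervals are 1.96 standard errors. Nothing in the labels ties mice to litters or cages, and p-values measure the spread between mice.

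DESeq2 1.42.0 and limma 3.58.1 were alternatives. Relations used residual log2 CPM (prior count 2) and 100000 permutations, two-sided. Near-identical copies were transcripts with at least 90% identity over 300 bases. In counts simulated on the dependent against non-dependent IP libraries, the fit recovered 100% of genes changed by 1 and 75% of those changed by 0.5 on the log2 scale. These counts had the same dispersion for every gene and no batch or sex difference, and only genes above a count floor were changed. The shares therefore do not carry over to members with a wider spread, a batch effect or low counts. The 26 genes and all lists were chosen with earlier results of these data known. All 26 are reported, with fuller values for genes passing a treatment comparison and for the regulators, and companions were named by smallest p, except 1 that is not reported here.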

Additional observations from a re-analysis of the deposited data

How the results depend on the processing

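Of the single-gene values under an alternative, 1938 kept their direction and side of the threshold, 21 lost a call, 16 gained one and 1 reversed, and the cause of each change was not tested. The number of members called between IP and input stayed within 1.5 times of 23, from 23 to 24, with voom and no count filter (each with the replicate block), without the replicate block, without mouse K15 and with 2 other scalings, and the block changed no call of a fraction difference. The other counts moved as follows, for an as-reported count given first. Dependent against naive mice in IP: 0, but 1 with DESeq2, 2 with no count filter, 1 with a neuron marker covariate and 1 without mouse K15. Dependent against non-dependent mice in IP: 2, but 4 with no count filter, 1 with no batch term, 0 in batches J and K only, 1 with an oligodendrocyte marker covariate, 4 with a neuron marker covariate and 1 without mouse K15. Non-dependent against naive mice: 0, but 1 in IP with no count filter, and 1 in IP and 1 in input with a neuron marker covariate. Dependent against naive mice in input: 1, but 2 with DESeq2, 2 with no count filter, and 0 in batches J and K only, with an oligodendrocyte or neuron marker covariate, and without mouse K15. Dependent against non-dependent mice in input: 1, but 0 with no batch term and in batches J and K only. Relations that passed were 8, and 2 after neuron markers were regressed out. The reversed value was Insig2 between IP and input with library totals as scale (-0.16). With each library left out in turn in limma voom, Insig1 ranged from 0.72 to 0.87 in IP and from 0.39 to 0.49 in input and Cyp46a1 from -0.44 to -0.31 in IP without losing a call, and Tm7sf2 from 0.39 to 0.47 in input. The microglia and neuron covariates, the scalings, the neuron marker regression, the omission of K15 and the left-out libraries were chosen after seeing the data. Batches J and K hold 6 dependent IP libraries and 6 non-dependent ones, so few samples remain there. The fit with no batch term took in all 6 batches, so it also added the dependent mice of C and G. Depth limits Fdps and Lbr, with standard errors of treatment differences in IP of 0.37 to 0.45 and 0.33 to 0.38.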
